A study of Homo sapiens with 12 samples.

Results

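Long noncoding RNAs (lncRNAs) are transcripts of at least 200 bases with no known protein product. Those analysed here are the 196 lncRNA genes, of 16899 in a table of 60715 genes, that reached 10 TPM (a transcript level scaled for gene length and library size) in at least 4 of 12 libraries and whose gene length was at least 200 bases. They were chosen by their measured TPM, so their high levels are no finding. Each cell line has 3 libraries, so a lncRNA expressed in 1 line alone could not enter. At the edge of the rule, by the fourth highest TPM, MIR210HG (10.1), AC008875.3 (10.1) and FP671120.7 (10.1) lay just inside, and AC025171.2 (9.98), UBA6-AS1 (9.96) and SNHG7 (9.87) just outside.

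RNA was sequenced from 4 established lines of human lung adenocarcinoma: HCC4006, LC-2/ad, NCI-H2009 and NCI-H2228. The groups were cells detached for 1 day, cells detached for 7 days, and cells in ordinary attached culture, the control, with 1 library per line in each. Detached cells had been taken off with trypsin and kept on a surface that cells cannot attach to. All lines were grown in RPMI-1640 with serum and antibiotics and carried no other treatment in the labels. Where 4 values follow each other below, they are given for NCI-H2009 first, then LC-2/ad, then NCI-H2228 and last HCC4006.

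The 4 lines are the replicates of a state, and a change within 1 line has no replicate and no test. Attached libraries carry no time label and are the control at both times. Loss of attachment therefore cannot be told apart from trypsin, replating or time in culture. Libraries held 31134420 to 41882024 estimated counts, and the 196 lncRNAs together took 0.712% to 1.065% of all TPM. Epithelial markers summed to 3940 TPM or more in every library. Of the fibroblast markers 3 of 7, of the leukocyte markers 4 of 7 and of the endothelial markers 1 of 4 stayed under 1 TPM in all libraries. Summed fibroblast markers ranged over 6.05 to 183 TPM at day 1, 4.39 to 46.0 TPM at day 7 and 6.28 to 377 TPM attached, the top mostly COL1A1 in NCI-H2228 (347 TPM attached, 149.6 TPM at day 1 and 39.2 TPM at day 7). Summed endothelial markers ranged over 1.41 to 4.56 TPM at day 1, 2.65 to 13.2 TPM at day 7 and 0.44 to 2.46 TPM attached, and VWF, at no more than 0.531 TPM, passed for both times together (edgeR adjusted p of 0.0389, and 0.0414 to 0.188 with a library or line left out). Summed leukocyte markers stood at 33.9 to 87.4 TPM at day 1, 18.9 to 120.1 TPM at day 7 and 3.60 to 38.5 TPM attached, mostly CD68 and CD14. The part of these markers in the results was not tested.

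LncRNAs act in several ways. Some, such as MALAT1, stay in the nucleus and sit in bodies of RNA and splicing proteins. Others are mainly hosts: their introns carry small nucleolar RNAs (snoRNAs), which guide the modification of ribosomal RNA, or their transcripts carry a microRNA (miRNA). Many more start from a coding gene's promoter or run antisense across a coding gene, and a few of these regulate that gene.

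Sequence shows why many of these levels are uncertain. Of the 196, 127 (64.8%) overlapped the span of a protein-coding gene, against 47.3% of all lncRNA genes in the table; 118 had a coding gene on the other strand and 19 on the same strand. Whether strand was used in counting is not given in the sources used here. In 35 of the 190 found in GENCODE v29, at least 50% of the exon bases lay on coding exons, 31 of them antisense. A pair of 40-base windows is printed for 1 abundant case, 5′ to 3′, from GENCODE v29 transcripts (GRCh38). The coding window lies in the longest open reading frame, the lncRNA window is its exact reverse complement, and no letter is capitalised because every base matches.
AC006064.4: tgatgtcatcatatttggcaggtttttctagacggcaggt
GAPDH: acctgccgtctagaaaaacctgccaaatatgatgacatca
In all, AC006064.4 shared 197 bases of that reading frame. GAPDH codes for an enzyme of glycolysis.

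The miRNA hosts are shown with the mature miRNAs their loci encode, from RefSeq (GRCh38.p14), with the seed (bases 2 to 8), which pairs with target mRNAs, in capitals. Of the 196, 10 hold a miRNA gene. MIR210HG hosts miR-210, a miRNA known for its induction in hypoxia, and MIR205HG hosts miR-205, a miRNA of epithelia. CYTOR and MIR4435-2HG each hold a copy of the gene for miR-4435.
hsa-miR-210-3p: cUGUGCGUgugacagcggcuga
hsa-miR-205-5p: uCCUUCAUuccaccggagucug
hsa-miR-4435: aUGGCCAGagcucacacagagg
The miRNA levels themselves were not measured. CYTOR and MIR4435-2HG are related copies on chromosome 2, and reads may have been split between them, so both levels are uncertain.

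Promoter windows (250 bases before to 50 bases after the start) were found in RefSeq for 104 of the 196. The MIR210HG promoter is printed because that lncRNA had the smallest p among those higher at day 1. It lies at chr11:568408-568707 on the minus strand of GRCh38.p14, and capitals mark ACGTG and GCGTG, the core bound by hypoxia-inducible factors, searched on both strands with no overlap between matches.
MIR210HG: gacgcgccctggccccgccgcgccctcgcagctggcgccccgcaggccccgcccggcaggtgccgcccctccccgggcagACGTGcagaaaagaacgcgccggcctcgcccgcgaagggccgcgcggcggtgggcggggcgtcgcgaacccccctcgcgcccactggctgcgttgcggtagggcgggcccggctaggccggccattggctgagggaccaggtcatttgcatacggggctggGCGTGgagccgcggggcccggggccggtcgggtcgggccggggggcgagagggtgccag
There were 2 matches, and 23.1% of 35116 promoters held at least 2, while 48.4% held at least 1.

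Many snoRNA hosts start at a C followed by a run of pyrimidines, the signal of mRNAs whose translation follows growth signals. A C followed by at least 4 pyrimidines began within 5 bases of the start in 8 of the 15 snoRNA hosts with a promoter window, in 19 of the 89 other lncRNAs with one, and in 21.1% of all promoters. Windows around the start are given for 3 hosts with the run, in capitals, and for SNHG1, where no run began within 5 bases of the annotated start.
ZFAS1: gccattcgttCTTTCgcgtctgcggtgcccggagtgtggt
SNHG5: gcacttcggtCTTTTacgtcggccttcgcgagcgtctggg
SNHG8: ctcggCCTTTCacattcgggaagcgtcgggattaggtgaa
SNHG1: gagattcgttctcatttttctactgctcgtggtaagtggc
They lie at chr20:49278632-49278671 (plus strand), chr6:85678704-85678743 (minus), chr4:118278752-118278791 (plus) and chr11:62855856-62855895 (minus). The 4 are examples, and the run did not divide the hosts by direction. SNHG16 and SNHG17 had it, with log2 changes at day 1 of -0.236 and -0.518. EPB41L4A-AS1 and SNHG29 lacked it, with 0.765 and 0.562.

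The levels spanned a wide range. The median of the mean TPM over 12 libraries was 14.7, 12 lncRNAs averaged at least 100 TPM, and between 124 and 141 of the 196 reached 10 TPM in a given library. In all 12 libraries 47 did so, and 26 in exactly 4. None varied by less than 2 times between its lowest and highest library, 62 varied by at least 10 times, and 8 were listed at 0 in at least 1 library. SNHG29, a host of SNORD49A, SNORD49B and SNORD65, was among the steadiest, between 138 and 301 TPM.

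MALAT1, on chromosome 11 from 65497688 to 65506516, was the most abundant, with a mean of 1387 TPM. It stood at 1054, 1275, 1448 and 1727 TPM attached, at 91.8, 926, 1673 and 1638 TPM at day 1, and at 1430.3, 1664, 2257 and 1455 TPM at day 7. The NCI-H2009 library at day 1 lay far below the other 11, while the other libraries overlapped across states. Its log2 change was -0.58 ± 0.47 (SE) at day 1 and 0.25 ± 0.45 at day 7, with adjusted p of 0.528 and 0.833 in edgeR. The same library also had the most estimated counts of the 12, and the changes of lncRNAs higher at day 1 are given below without it too. In these bulk samples a lower level from fewer cells of a kind cannot be told apart from less RNA per cell.

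Next in level came 3 lncRNAs on chromosome 21, FP236383.5, FP236383.4 and FP671120.6, with means of 697, 593 and 578 TPM. Their positions lie within the RefSeq 18S ribosomal RNA genes RNA18SN1, RNA18SN3 and RNA18SN2, and FP671120.7, with a mean of 8.10 TPM, lies within the pseudogene RNA18SP5. The 3 transcripts are identical over 923 bases, so their separate values cannot be told apart from each other or from 18S rRNA. FP236383.5, from 8437629 to 8438551, stood at 644, 393, 291 and 544 TPM attached, at 1767, 917, 585 and 742 TPM at day 1, and at 589, 332, 585 and 979.9 TPM at day 7. At day 1 each line lay above its own attached library, and at day 7 NCI-H2228 and HCC4006 did. The 4 lncRNAs over 18S genes had a median log2 change of 1.30 at day 1 and 0.51 at day 7. None passed in edgeR. DESeq2 called all 4 at day 1, and FP236383.4, FP671120.6 and FP671120.7 for both times together.

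The rest of the 10 most abundant were lncRNAs antisense to tubulin and GAPDH genes, 2 snoRNA hosts and MIR4435-2HG. AC011603.3, antisense to the alpha-tubulin gene TUBA1B, averaged 253 TPM, AC125611.3, antisense to TUBA1C, 181 TPM, and AC006064.4, antisense to GAPDH, 141 TPM. SNHG29 averaged 189 TPM, GAS5, a host known to accumulate in growth arrest, 146 TPM, and MIR4435-2HG 119 TPM.

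**Figure D1:**
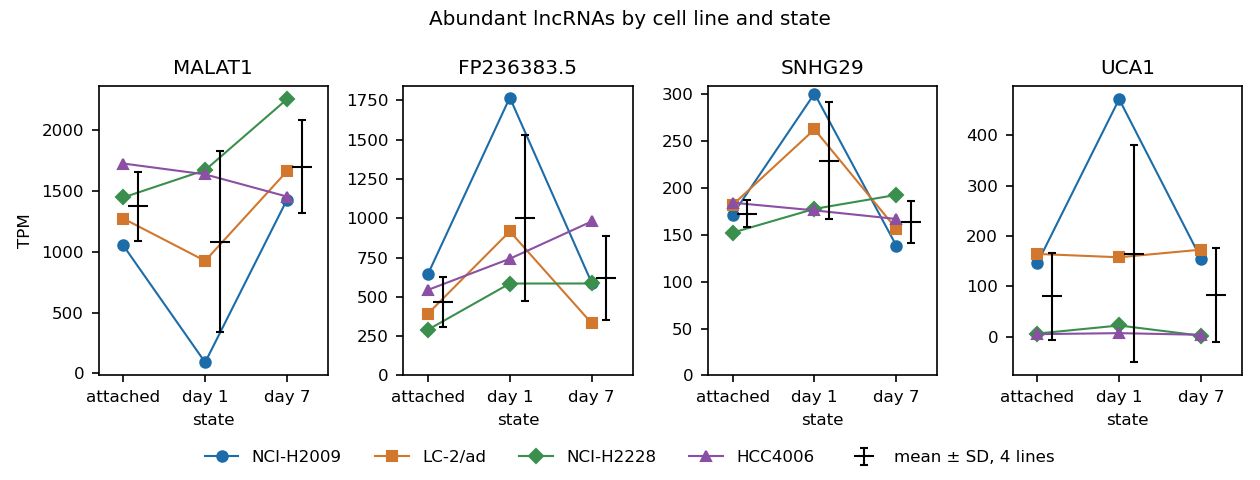
TPM of MALAT1, FP236383.5, SNHG29 and UCA1 in each line (coloured points and lines) by state on the x axis, with the mean and SD over 4 lines in black. MALAT1 was at 91.8 TPM in NCI-H2009 at day 1, UCA1 was high in NCI-H2009 and LC-2/ad and low in the others, and FP236383.5 and SNHG29 were highest in NCI-H2009 at day 1.

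Cell line was the larger source of variation. The median share of variance of log2 expression was 71.3% for line and 10.6% for state over the 196 lncRNAs, against 69.4% and 11.8% over 8488 protein-coding genes chosen by the same TPM rule. Line took the larger share in 167 of the 196 and in 7357 of the 8488 protein-coding genes, so the lncRNAs were near the background. A lncRNA was called high or low in a line when that line differed from the mean of the other 3 by at least 2 on the log2 scale with an edgeR adjusted p under 0.05. This test asks whether a difference between lines held over the 3 states, since the 3 libraries of a line are not replicates. It shares its levels with the rule that chose the members, so the counts are a description.

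By this rule 44 of 196 (22.4%) were high or low in at least 1 line, against 25.1% of 17395 genes tested, a share near the background. In NCI-H2009 12 were high and 12 low, against 6.61% and 6.36% of all genes. In LC-2/ad 9 were high and 8 low, against 4.02% and 5.46%. In NCI-H2228 13 were high and 9 low, against 7.76% and 4.9%. In HCC4006 10 were high and 10 low, against 8.4% and 3.79%. Of these, 33 of 196 (16.8%) also stood above or below every library of the other lines, against 17.5% of all genes, again near the background.

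Some lncRNAs were nearly absent from whole lines. Under 0.5 TPM in all 3 libraries of a line stood 9 of the 196 (4.59%), against 1.32% of the 8488 protein-coding genes of the same TPM rule. These are PAX8-AS1, AC008875.3, AC090204.1 and AP000547.3 in NCI-H2009, LINC00960 in LC-2/ad, HOTAIRM1 in NCI-H2228, MEG3 in both NCI-H2009 and LC-2/ad, and AC129507.4 and ZNF667-AS1 in both NCI-H2228 and HCC4006. AC090204.1, for example, stood at 0.071, 0.153 and 0 TPM in NCI-H2009 across attached, day 1 and day 7, against 9.82 to 24.9 TPM in the other lines. LINC00960 stood at 0.06, 0 and 0.068 TPM in LC-2/ad, against 4.83 to 19.6 TPM in the other lines. The difference between 4.59% and 1.32% was not tested.

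MEG3, an imprinted lncRNA whose loss is known in many tumours, lies on chromosome 14 from 100779410 to 100861031. It was listed at 0 in all 6 libraries of NCI-H2009 and LC-2/ad. In NCI-H2228 it stood at 22.5, 12.8 and 24.7 TPM attached, at day 1 and at day 7, and in HCC4006 at 29.8, 20.4 and 8.23 TPM. Both expressing lines were thus apart from both others in every state, a description, since MEG3 entered through these lines.

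HOTAIRM1, known from myeloid differentiation, was listed at 0 in the 3 NCI-H2228 libraries. It stood between 22.4 and 35.2 TPM in NCI-H2009, between 29.6 and 40.1 TPM in HCC4006 and between 6.21 and 18.03 TPM in LC-2/ad. The 3 expressing lines, through which it entered, thus lay above NCI-H2228 in every state, which is a description. HOTAIRM1 overlaps a coding gene, so its level is uncertain.

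ZNF667-AS1 stood at 120.4, 93.9 and 75.0 TPM in NCI-H2009 across attached, day 1 and day 7, at 11.3 to 12.4 TPM in LC-2/ad, and was listed at 0 in NCI-H2228 and HCC4006. ZNF667, a zinc-finger gene on the other strand, had an r of 0.98 with it over 12 libraries, which rests on differences between lines. PAX8-AS1 stood at 11.1 to 15.03 TPM in HCC4006 and 6.88 to 14.1 TPM in LC-2/ad, and at no more than 0.284 TPM in NCI-H2009 and 0.961 TPM in NCI-H2228. Its r with PAX8, the gene on the other strand, was 0.92. FOXD3-AS1 stood at 20.01 to 32.3 TPM in HCC4006 and at no more than 1.30 TPM in NCI-H2009, a log2 difference from the other lines of 2.42 ± 0.30 for HCC4006 and -3.92 ± 0.43 for NCI-H2009.

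UCA1, a lncRNA first described in urothelial cancer, divided the lines in pairs. It stood at 146, 472 and 155 TPM in NCI-H2009 and at 164, 157 and 173 TPM in LC-2/ad across attached, day 1 and day 7. NCI-H2228 had 5.89, 22.0 and 1.67 TPM, and HCC4006 4.71, 6.75 and 3.46 TPM. The NCI-H2009 library at day 1 was the highest of the 12, and the 2 pairs did not overlap. UCA1 met the TPM rule mainly through NCI-H2009 and LC-2/ad, so this separation is a description. By the contrast with the mean of the others, both NCI-H2009 (log2 difference 3.38) and LC-2/ad (3.24) counted as high, so this call does not mean that a line stood alone.

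Several lncRNAs were set apart by low values in 1 line. CRNDE stood at 0.637, 0.406 and 2.57 TPM in NCI-H2009, against 11.7 to 57.8 TPM in the other lines. LINC00665 stood at 3.06, 1.42 and 3.19 TPM in LC-2/ad, against 9.85 to 194 TPM elsewhere, and SNHG18, host of SNORD123, at 0.82, 1.33 and 0.502 TPM there, against 11.2 to 75.8 TPM elsewhere. LASTR stood at 1.76, 1.496 and 0.367 TPM in NCI-H2228, against 13.4 to 25.1 TPM elsewhere. LINC00460 stood at 0.617, 1.52 and 0.126 TPM in HCC4006, against 8.51 to 58.3 TPM elsewhere. In each of these 5 the low line did not overlap the other 3, and each passed edgeR with an adjusted p between 8.28e-06 and 0.00134. All 5 stayed under the TPM minimum in the low line, so they entered through the lines where they are high. Their separation and their p share values with that choice and are a description. LINC00665 was also named after its values were seen.

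Other members divided the lines too, and each of these entered through the lines where it is high, so this is a description. AC006460.1, antisense to NAB1, stood at 69.7 to 88.7 TPM in NCI-H2009, at 5.92 to 18.3 TPM in NCI-H2228 and LC-2/ad, and at 0 to 1.26 TPM in HCC4006. AC129507.4, antisense to RPH3AL, stood at 13.8 to 22.5 TPM in NCI-H2009 and 6.08 to 16.1 TPM in LC-2/ad and was listed at 0 in the other lines. AP000547.3 stood at 16.8 to 23.0 TPM in HCC4006 and 6.04 to 12.03 TPM in LC-2/ad and NCI-H2228 and was listed at 0 in NCI-H2009. AC008875.3 stood at 15.9 to 24.6 TPM in NCI-H2228, 3.87 to 10.1 TPM in LC-2/ad and HCC4006, and at no more than 0.39 TPM in NCI-H2009. No overlap with a coding gene was found for AP000547.3 or AC008875.3.

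**Figure D2:**
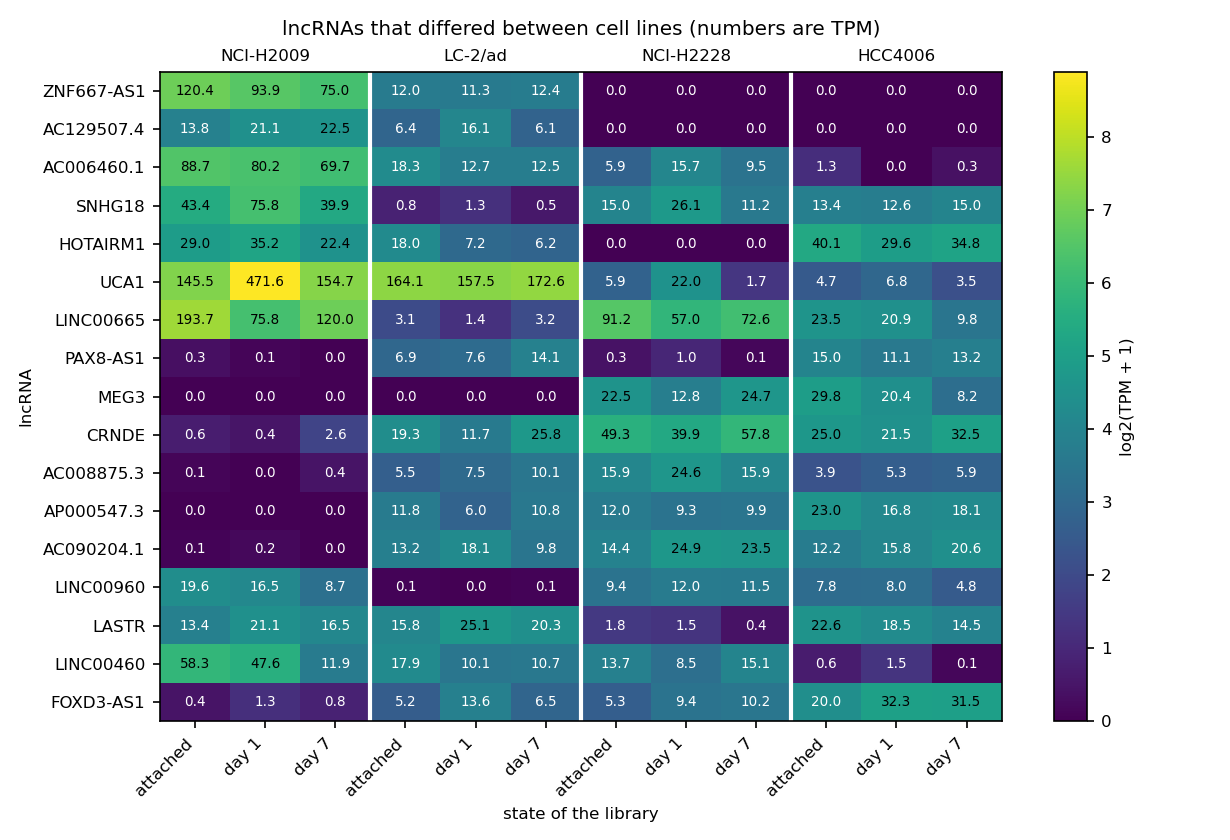
TPM of 17 lncRNAs that differed between lines (rows) in the 12 libraries (columns, grouped by line, with attached, day 1 and day 7 from left to right). Colour is log2(TPM + 1) and each cell prints the TPM, and MEG3 reads 0 in NCI-H2009 and LC-2/ad in all states.

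Detachment for 1 day left no lncRNA past the threshold in edgeR, although several had one direction in the 4 lines in CPM. Of 196 tested, 0 had an adjusted p under 0.05, against 0.489% of all 17395 genes. At an unadjusted p under 0.05 there were 48, 33 higher and 15 lower, or 24.5% against 19.6% of all genes. At least 2-fold higher in each line, in CPM, were 3, or 1.53% against 0.73% of all genes, and at least 2-fold lower were 0, against 0.638%. The 3 were MIR210HG, FP671120.7 and AC245407.2. MIR210HG and FP671120.7 lay just inside the TPM rule, and MIR210HG met it mainly through detached libraries. The 1.53% and the p of MIR210HG thus share values with the choice and are a description. AC245407.2 reached 10 TPM in no attached library, so it entered through the group where it is high, and stood at 80.7, 2.08, 3.34 and 11.7 TPM at day 1, against 4.48, 0.67, 1.57 and 3.61 TPM attached. DESeq2, on the same design, called 21 (13 higher and 8 lower), or 10.7% against 9.74% of all genes.

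MIR210HG, on chromosome 11 from 565660 to 568457, had the smallest p. It stood at 18.4, 8.26, 4.86 and 19.7 TPM at day 1, against 5.03, 2.87, 1.99 and 10.1 TPM attached. Each line's day 1 library lay above its own attached library, by at least 2-fold in counts scaled to library size (CPM), though the groups overlapped in TPM, with HCC4006 high and NCI-H2228 low throughout. Its log2 change was 1.61 ± 0.34 (SE) with an edgeR adjusted p of 0.0692, and 1.28 ± 0.32 without the NCI-H2009 day 1 library. At day 7 it stood at 6.73, 4.52, 3.87 and 14.0 TPM, and day 7 against day 1 gave -1.07 ± 0.34 with an adjusted p of 0.480. Of the 5 lncRNAs on a list of hypoxia-linked ones, 3 had a positive and 2 a negative log2 change at day 1 (median 0.53). None passed in edgeR at day 1, while DESeq2 called MIR210HG and PVT1.

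The other lncRNAs named by the smallest p among those higher in the 4 lines were FP236383.4 (log2 change 1.34 ± 0.29), AL445524.1 (1.80 ± 0.44), LINC00963 (0.94 ± 0.23), FP671120.6 (1.21 ± 0.30) and AL441992.1 (1.45 ± 0.38). Their adjusted p lay between 0.0755 and 0.0959. Without the NCI-H2009 day 1 library the log2 changes were 1.00, 1.25, 0.71, 0.93 and 1.14 in the same order. AL445524.1, which starts next to TSNAX on the other strand, stood at 74.9, 116, 28.2 and 60.9 TPM at day 1, against 16.4, 37.6, 12.9 and 39.6 TPM attached. Each line was higher at day 1, and at day 7 the values were 11.7, 18.8, 14.7 and 37.8 TPM. At day 7 AL445524.1 was thus below the line's own attached library in 3 of 4 lines, most in LC-2/ad, and above it in NCI-H2228. TSNAX itself had a log2 change of -0.07 at day 1, and r between them was -0.04 over 12 libraries.

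AL441992.1, antisense to ZER1, had the same shape. It stood at 149, 26.1, 48.1 and 34.7 TPM at day 1, against 55.4, 16.1, 17.0 and 12.6 TPM attached, and at 25.1, 9.57, 9.77 and 17.2 TPM at day 7. In the 4 lines day 1 was the highest of the 3 states. LINC00963, which no coding gene overlaps, was above attached at day 7 too. It stood at 68.0, 33.9, 23.3 and 16.4 TPM at day 1 and 60.05, 28.97, 31.9 and 14.4 TPM at day 7, against 27.5, 13.4, 19.7 and 11.9 TPM attached. Each line was above its attached library at both times.

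The smallest p among lower lncRNAs at day 1 belonged to 3 lncRNAs antisense to tubulin genes. AC011603.3 stood at 168, 256, 51.1 and 155 TPM at day 1, against 652, 397, 243 and 293 TPM attached. Its log2 change was -1.28 ± 0.28 with an edgeR adjusted p of 0.0755, and TUBA1B, its coding partner, had -1.33 with an adjusted p of 0.0555. The partner's levels were 1320.1, 2165, 645 and 1478 TPM at day 1, against 4655, 3943, 2979.6 and 2815 TPM attached. In both, the groups overlapped little or not at all and each line was lower.

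AC125611.3 stood at 163, 145, 79.4 and 89.8 TPM at day 1, against 466, 241, 286 and 141 TPM attached. Its log2 change was -1.05 ± 0.24, and that of TUBA1C was also -1.05. AL662797.1, antisense to the beta-tubulin gene TUBB, stood at 9.52, 16.0, 9.01 and 13.7 TPM at day 1, against 31.1, 24.2, 25.4 and 30.7 TPM attached, with no overlap. Its log2 change was -1.10 ± 0.26 with an adjusted p of 0.0804 in edgeR, and TUBB fell by 0.97 with an adjusted p of 0.0496, which lay between 0.0574 and 0.251 with a library or line left out. Over 12 libraries r with the coding partner was 0.95, 0.97 and 0.88 for the 3 pairs, and reads of each pair cannot be told apart if strand was not used.

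**Figure D3:**
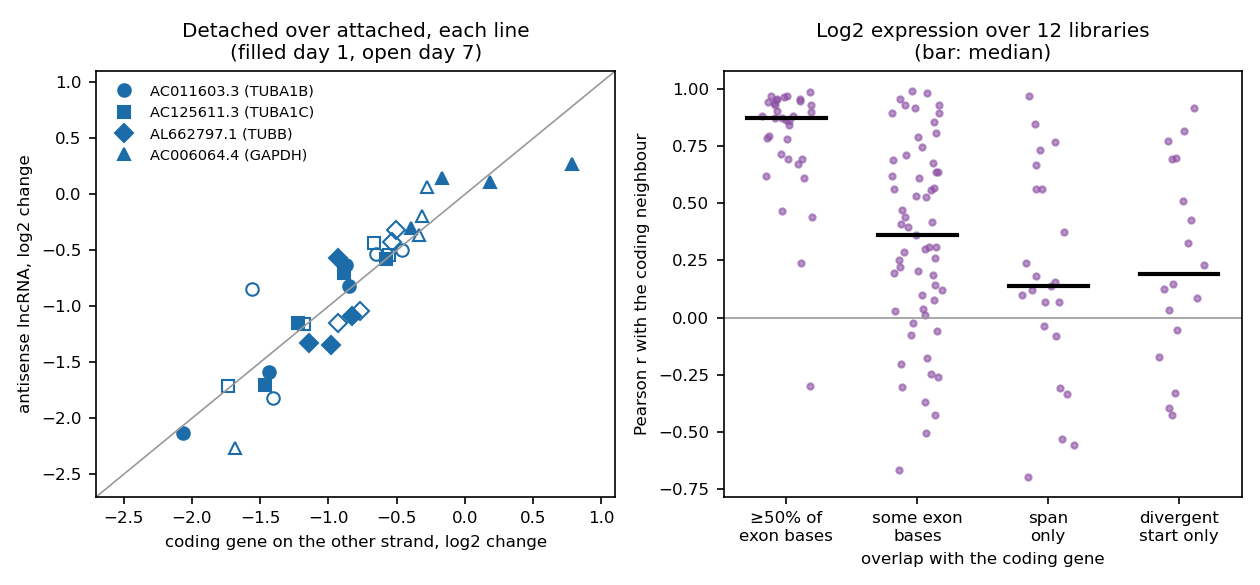
Left, log2 change of 4 antisense lncRNAs (y axis) against that of their coding partner (x axis), 1 point per line, filled at day 1 and open at day 7, with the line of equal change. Right, Pearson r of log2 expression with the coding neighbour over 12 libraries by overlap, with medians of 0.88, 0.36, 0.14 and 0.19 from left to right.

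The likeness to the coding neighbour followed the amount of exon overlap. The median r over 12 libraries was 0.88 for 34 lncRNAs with at least 50% of exon bases on coding exons, 0.36 for 59 with some exon overlap, 0.14 for 23 that shared only the gene span, and 0.19 for 18 with only a divergent start within 1000 bases. These are descriptions over libraries that share 4 lines. Further pairs with high values were AC011611.3 and PHLDA1 (0.97), DDIT4-AS1 and DDIT4 (0.96), AC093484.3 and UBB (0.93), and AL691482.3 and ELF3 (0.99). AL691482.3 lies on the same strand as ELF3, an epithelial transcription factor, with 67.3% of its exon bases on ELF3 exons. It stood at 13.5, 11.3, 4.18 and 5.95 TPM at day 1 and at 23.1, 20.5, 3.49 and 7.17 TPM at day 7, against 1.61, 10.9, 1.27 and 4.96 TPM attached. Each line was higher at both times, and neither AL691482.3 nor ELF3 passed in edgeR. DESeq2 called AL691482.3 for both times together.

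The remaining named lncRNAs lower at day 1 were SNHG10 (log2 change -1.24 ± 0.31), SNHG11 (-0.98 ± 0.31) and MINCR (-1.15 ± 0.39), with edgeR adjusted p of 0.091, 0.139 and 0.158. MINCR was lower in 3 of 4 lines in TPM. SNHG10, host of SCARNA13, a guide RNA of Cajal bodies, stood at 5.10, 7.11, 5.94 and 11.5 TPM at day 1 and 4.18, 9.42, 8.14 and 12.3 TPM at day 7, against 10.7, 19.04, 10.8 and 19.3 TPM attached. Each line was below its attached library at both times.

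**Figure D4:**
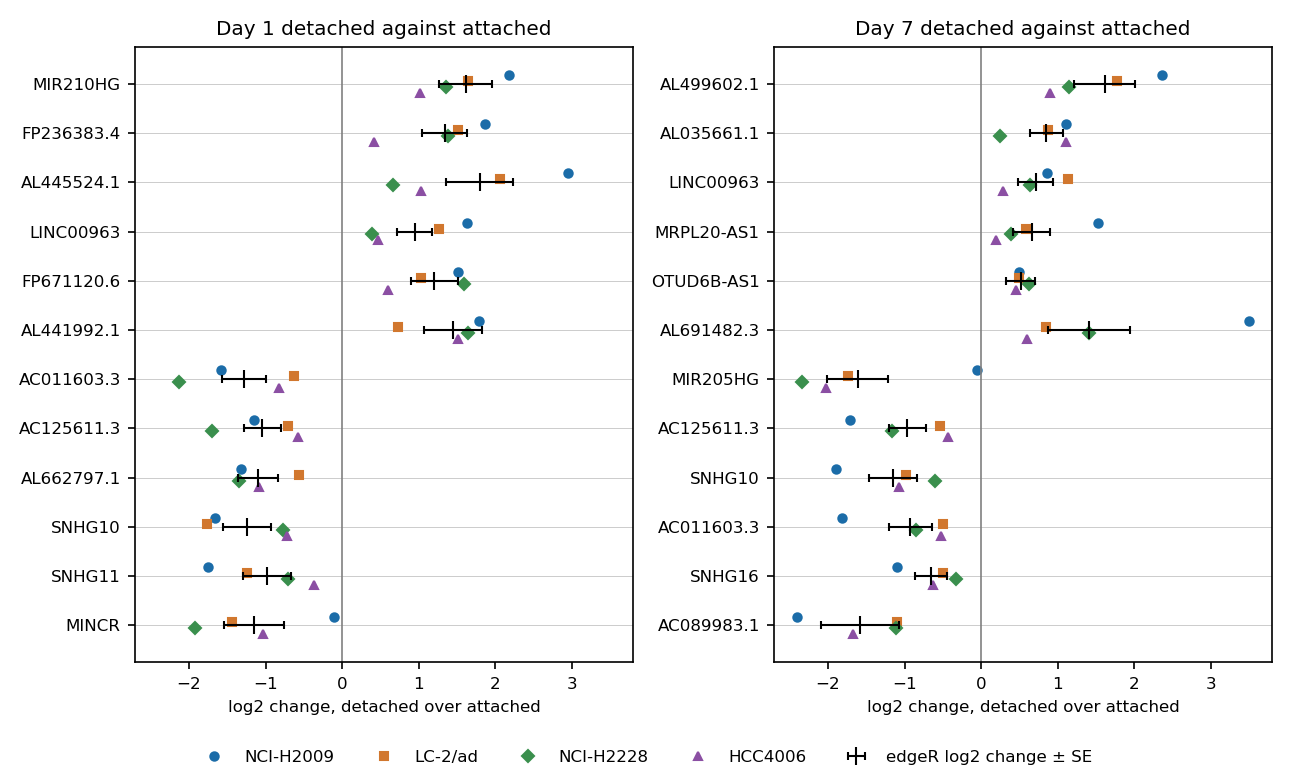
Log2 change of the named lncRNAs (rows) at day 1 (left) and day 7 (right), detached over attached, as points for each line (log2 CPM differences) and as the edgeR estimate with its SE in black. At day 1 MIR210HG was above 1 in each line, and at day 7 MIR205HG was near 0 in NCI-H2009 and below -1.7 in the other lines.

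At day 7, again 0 of 196 passed in edgeR, against 0.103% of all genes. At an unadjusted p under 0.05 there were 26, 13 higher and 13 lower, or 13.3% against 15.7% of all genes. None was at least 2-fold higher in each line, against 0.506% of all genes, and 1 was at least 2-fold lower, against 0.494%. DESeq2 called 9, or 4.59% against 6.63% of all genes. The 1 lncRNA lower by 2-fold in each line was AC089983.1, at 3.02, 2.36, 10.8 and 0.271 TPM at day 7, against 14.1, 5.04, 24.7 and 1.32 TPM attached. It is antisense to TXNRD1, a gene of redox control, and its log2 change of -1.58 ± 0.51 had an edgeR adjusted p of 0.192. Its level followed that of TXNRD1 with an r of 0.85 over 12 libraries.

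MIR205HG, on chromosome 1 from 209428817 to 209432838, had the largest negative change among those named at day 7. It stood at 13.5, 9.21, 2.15 and 2.98 TPM at day 7, against 8.84, 29.2, 12.7 and 10.95 TPM attached. In NCI-H2009 the log2 difference in counts was -0.06, against -1.74, -2.34 and -2.02 in the other lines, a contrast between lines that was not tested. Over the 4 lines the log2 change was -1.61 ± 0.40 with an edgeR adjusted p of 0.134, and -2.05 ± 0.30 without NCI-H2009. At day 1 it stood at 9.54, 10.3, 3.66 and 4.03 TPM. In NCI-H2009 its TPM was thus higher at day 7 than attached while its count-based value was about level, and the cause was not tested.

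The others named lower at day 7 were AC125611.3 (-0.96 ± 0.24), SNHG10 (-1.15 ± 0.31), AC011603.3 (-0.93 ± 0.28) and SNHG16 (-0.65 ± 0.21). Those named higher were AL499602.1 (1.61 ± 0.40), AL035661.1 (0.85 ± 0.21), LINC00963 (0.71 ± 0.23), MRPL20-AS1 (0.66 ± 0.24), OTUD6B-AS1 (0.52 ± 0.19) and AL691482.3 (1.41 ± 0.53). AL499602.1, which starts next to RASEF, stood at 5.45, 10.2, 14.97 and 7.26 TPM at day 1 and 20.7, 17.0, 7.89 and 7.85 TPM at day 7, against 3.24, 4.75, 3.61 and 4.47 TPM attached. It reached 10 TPM in no attached library, so it entered the 196 through the group where it is high, and its separation and its p are a description. Of the 196, 6 (3.06%) were of this kind, against 0.848% of the 8488 protein-coding genes of the same TPM rule, a rule that 8 detached libraries can meet more easily than 4 attached ones. AL035661.1, a lncRNA with no coding gene at its locus, stood at 44.2, 29.6, 4.88 and 66.1 TPM at day 7, against 17.0, 15.5, 4.19 and 32.9 TPM attached.

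For the mean of both detached times against attached, 0 of 196 passed in edgeR, against 0.977% of all genes. The unadjusted p was under 0.05 in 34 (20 higher, 14 lower), or 17.3% against 20.1% of all genes, and DESeq2 called 22, or 11.2% against 10.3% of all genes. AC125611.3 came nearest, with a log2 change of -1.01 ± 0.20 and an edgeR adjusted p of 0.0507, while its partner TUBA1C had -1.04 with an adjusted p of 0.0379, which lay between 0.0438 and 0.179 in the 16 fits that each left out a library or line and passed in 2 of them. AC011603.3 (0.0571), SNHG10 (0.0591) and AL662797.1 (0.0695) followed among those lower. Among those higher were AL499602.1 (0.0738, selected through its detached libraries), LINC00963 (0.0801), MIR210HG (0.102, mainly selected likewise), AL035661.1 (0.103), FP236383.4 (0.104) and HCP5 (0.118). HCP5, a lncRNA of the major histocompatibility region, stood at 45.7, 11.9, 22.0 and 7.19 TPM at day 1 and 93.3, 23.3, 19.7 and 10.1 TPM at day 7, against 22.2, 7.57, 21.4 and 4.56 TPM attached. NCI-H2228 was about level, and the other lines were higher at both times. HCP5 has 2.0% of its exon bases on exons of its neighbour MICA, with which r was 0.81 over 12 libraries. SNHG15 (0.124) and SNHG1 (0.127) complete the lower ones.

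Between the detached times, day 7 against day 1, 0 of 196 passed in edgeR, and 0.0% of all genes did. The unadjusted p was under 0.05 in 29 (10 higher, 19 lower), or 14.8% against 9.78% of all genes, and DESeq2 called 3, or 1.53% against 1.1% of all genes. These were AL441992.1, AL445524.1 and UCA1, all lower at day 7. The log2 differences were -1.99 ± 0.40 for AL441992.1, -1.95 ± 0.44 for AL445524.1, -1.82 ± 0.54 for AC135048.1, -1.25 ± 0.39 for OLMALINC and -0.70 ± 0.22 for PCAT1. AC135048.1 has 96.9% of its exon bases on same-strand coding exons, with ORAI3, a calcium channel gene, as partner, so its value is uncertain. Higher at day 7 were CRNDE (0.85 ± 0.25), AC005083.1 (1.04 ± 0.34), CTBP1-DT (0.50 ± 0.17), MRPL20-AS1 (0.66 ± 0.24), SNHG11 (0.88 ± 0.31) and PSMA3-AS1 (0.78 ± 0.29). None of these passed in edgeR, with adjusted p between 0.362 and 0.487, and each had one direction in the 4 lines in CPM. In TPM the direction held in 3 of 4 lines for PCAT1 and PSMA3-AS1.

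The snoRNA hosts were well represented. Of the 196, 19 (9.69%) held a snoRNA gene in their span, against 81 of all lncRNA genes (0.48%). A separate list of 32 snoRNA host names also had 19 among the 196, and the counts that follow are for that list. None passed in edgeR in any contrast. DESeq2 called SNHG10 and SNHG11 at day 1, SNHG10 at day 7, and SNHG10, SNHG1 and SNHG15 for both times together. At day 1, 11 had a positive and 8 a negative log2 change (median 0.36). At day 7, 5 had a positive and 14 a negative one (median -0.18). The medians of all 196 were 0.14 and 0.04, and those of all genes tested were 0.01 and 0.03.

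The hosts differed in direction. ZFAS1, host of SNORD12 genes, stood at 72.9, 124, 103 and 24.4 TPM at day 1, against 31.3, 80.5, 74.3 and 14.6 TPM attached, a log2 change of 0.99 ± 0.35 with an edgeR adjusted p of 0.169. SNHG5, host of SNORD50B, stood at 34.4, 80.1, 234 and 154 TPM at day 1, against 18.97, 35.6, 163 and 106 TPM attached. Both were higher in each line, as was GAS5. SNHG18, SNHG29 and EPB41L4A-AS1 were higher in each line in CPM but in 3 of 4 lines in TPM. SNHG1, host of a row of SNORD genes, stood at 7.99, 8.34, 7.54 and 4.04 TPM at day 1, against 14.3, 11.5, 29.8 and 10.1 TPM attached, and was lower in each line, as were SNHG10 and SNHG11. SNHG15 was lower in each line in CPM but in 3 of 4 lines in TPM.

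Within lines, the hosts spread at day 7. In NCI-H2009 all 19 listed hosts had a negative log2 CPM difference from attached (median -0.90). So did 15 of 19 in LC-2/ad (-0.26), 10 of 19 in NCI-H2228 (-0.14) and 10 of 19 in HCC4006 (-0.08). In TPM 18 of the 19 listed hosts were lower in NCI-H2009, SNHG11 being the exception. The 19 lncRNAs with a snoRNA gene in their span gave a less even picture. Of these, 18 were negative in NCI-H2009 (median -0.80) and 14 in LC-2/ad (-0.19). In NCI-H2228 9 were negative (median 0.13), and in HCC4006 9 (0.11). The median of all 196 lncRNAs in NCI-H2009 was -0.11 and that of all genes 0.04. At day 7 against day 1 the median of the listed hosts was -1.61 in NCI-H2009 and 0.16 in NCI-H2228. Of these 19, 18 and 9 were negative in CPM and 16 and 7 in TPM. For those with a snoRNA gene in the span the medians were -1.34 and -0.01. Each of these values compares 1 library with 1 library, and the difference between lines was not tested. GAS5 in NCI-H2009 stood at 129 TPM attached, 172 TPM at day 1 and 61.4 TPM at day 7, while in NCI-H2228 it stood at 166, 179 and 315 TPM.

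**Figure D5:**
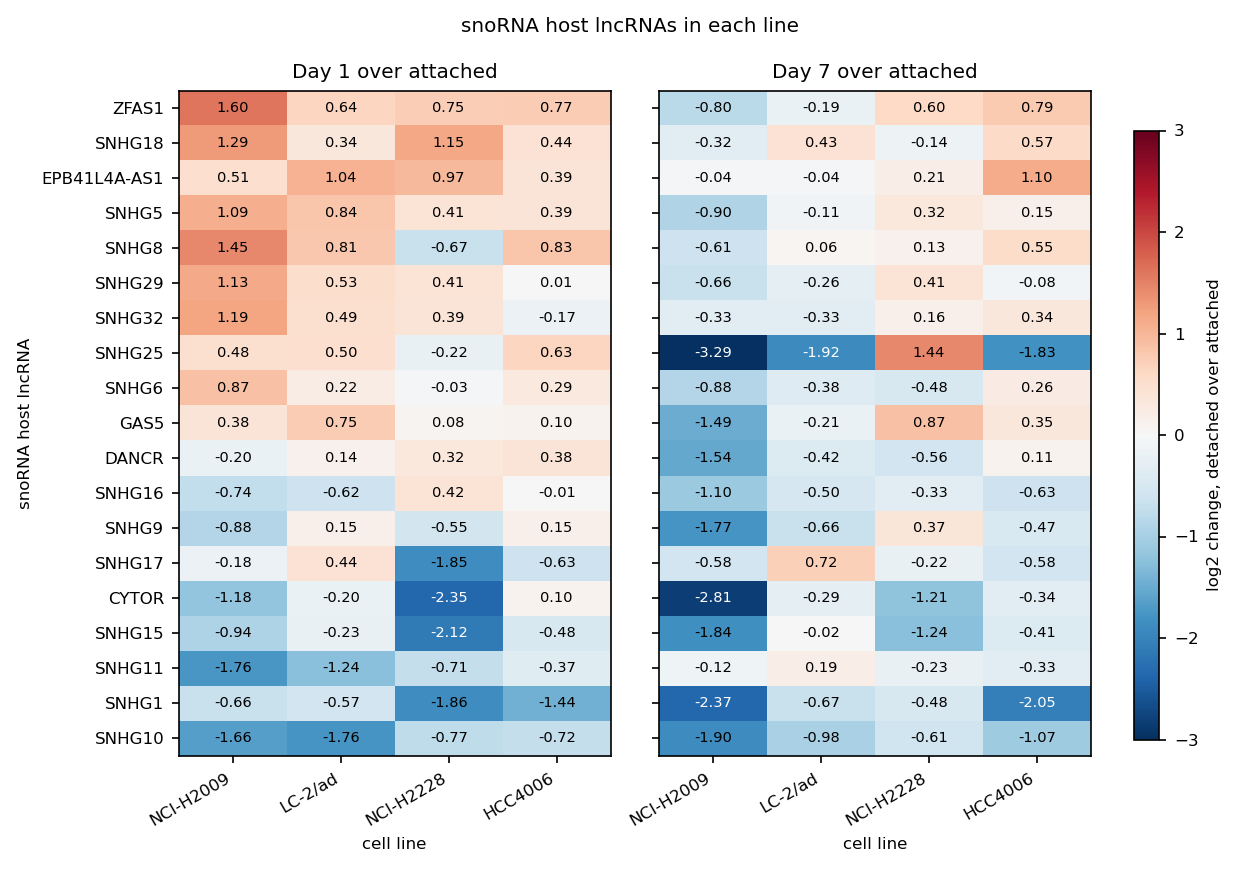
Log2 change of 19 snoRNA host lncRNAs (rows) in each line (columns) at day 1 (left) and day 7 (right), detached over attached, with each value printed (log2 CPM differences). At day 7 the NCI-H2009 column is negative in all 19 hosts, while ZFAS1 and SNHG18 at the top are positive in each line at day 1.

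Genes that work with these RNAs were measured alongside. Of 16 genes for snoRNP proteins, which package snoRNAs, 0 passed in edgeR. Their medians were -0.53 at day 1 and -0.32 at day 7, with 12 and 15 negative. Of 15 genes for proteins of paraspeckles, nuclear bodies built on a lncRNA, 1 passed at day 1, RBM14, which fell by 0.99 ± 0.17 with an edgeR adjusted p of 0.0496, and all 15 were negative (median -0.48). Its adjusted p lay between 0.059 and 0.251 with a library or line left out. At day 7 0 of the 15 passed in edgeR, with a median of -0.33. Of 16 genes of nonsense-mediated decay, which degrades many spliced host transcripts, 0 passed in edgeR, with medians of -0.17 and -0.18.

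The remaining lists held few of the 196. Of 8 lncRNAs on a broad list headed nuclear bodies, MALAT1, NORAD and MEG3 were members. Being on the list does not place NORAD or MEG3 in such a body. NORAD had a log2 change of 0.14 at day 1 and 0.43 at day 7. Of 39 miRNA hosts listed, MIR210HG, MIR205HG and MIR4435-2HG were members. MIR4435-2HG stood at 200.2, 124, 72.1 and 63.1 TPM at day 1 and 72.0, 125, 115 and 52.4 TPM at day 7, against 231, 123, 177 and 73.3 TPM attached. CYTOR, its related copy, stood at 45.2, 93.2, 26.7 and 77.2 TPM at day 1 and 15.2, 88.1, 58.0 and 57.6 TPM at day 7, against 103, 99.6, 145 and 79.0 TPM attached. In both, LC-2/ad and HCC4006 varied less than NCI-H2009 and NCI-H2228.

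Of 7 lncRNAs linked to p53 or stress, 4 were positive and 3 negative at day 1 (median 0.14), and none passed in edgeR. DESeq2 called PVT1 at day 1, and PVT1 and SNHG15 for both times together. PVT1, next to MYC, stood at 11.7, 9.99, 8.44 and 8.73 TPM at day 1, against 18.8, 13.9, 21.3 and 13.1 TPM attached, and was lower in each line with no overlap (log2 change -0.78 ± 0.27, edgeR adjusted p of 0.162). TP53TG1 had a log2 change of 0.64 ± 0.27 at day 1. Of 13 cancer-associated lncRNAs, 8 were positive and 5 negative at day 1 (median 0.07), and 5 and 8 at day 7 (median -0.27). None passed in edgeR. DESeq2 called PVT1 and MIR205HG at day 1 and MIR205HG at day 7. It also called PVT1, MIR205HG and FOXD3-AS1 for both times together, and UCA1 for day 7 against day 1.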

How the data were processed

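RNA sequencing of 12 libraries (4 cell lines in 3 states, 1 library each) was analysed. The authors deposited, per gene and library, an estimated count and a TPM value (scaled for gene length and library size), with gene type and position in the same table. The genome build was GRCh38, per the submitters' processing notes. An aligner, an annotation release and a strand setting were not given in the sources used here. Of the estimated counts above 0, 31.5% were not whole, and they were rounded before testing.

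Counts were tested with edgeR 4.0.16 in R 4.3.3: quasi-likelihood F test (robust), TMM normalisation, genes filtered by state with the tool's default, and a model of cell line plus state over all 12 libraries. Adjustment was by Benjamini-Hochberg across the 17395 genes in the test, at 0.05, and the procedure was tested on simulated data. All 196 lncRNAs passed the filter. The SE is the log2 change divided by the square root of F. Changes within a line are log2 differences of CPM (counts scaled to library size) with a prior count of 2. Same-numbered libraries are the same cell line in 3 states, which pairs them, so the line is a block in the main model. Alternatives were DESeq2 1.42.0, its size factors within edgeR, limma 3.58.1 on log2(TPM + 1) and log2(TPM + 0.1), no filter, no line block, and leaving out each library or line.

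Named are the 10 lncRNAs of highest mean TPM, up to 6 per direction and contrast with the smallest p and one direction in the 4 lines in CPM, 4 high and 2 low per line by log2 difference, members of lists by smallest p, and those at the TPM threshold. A few more, such as LINC00665, AC245407.2 and the coding partners, were chosen after their values were seen. The members and lists were chosen with earlier results of these data known. Exon overlap used GENCODE v29, and sequences came from RefSeq (GRCh38.p14) or GENCODE v29. P-values of the detachment contrasts measure the spread between 4 cell lines. Those of the contrasts between lines measure how evenly a difference held over the states, whose libraries are not replicates of a line. Some items are not reported here.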

Additional observations from a re-analysis of the deposited data

Results flagged for a closer look

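Among 49 named lncRNAs, the 4 per-line changes at day 1 and at day 7 were searched for 1 line far from the other 3, which gave 98 groups and 3 hits. Chance gives about 1 in 20 groups. AC008875.3 had a log2 difference of -1.22 in NCI-H2009 at day 1, against 0.45, 0.76 and 0.47 in LC-2/ad, NCI-H2228 and HCC4006, and stood at 0.012 TPM there against 0.079 TPM attached, under 0.5 TPM in both. MEG3 had -1.44 in HCC4006 at day 7, against 0.17 in NCI-H2228, with 8.23 TPM at day 7 and 29.8 TPM attached, and was listed at 0 in the other lines. ZNF667-AS1 had -1.01 in NCI-H2009 at day 7, with 75.0 TPM at day 7 and 120.4 TPM attached, against 0.05 in LC-2/ad, and was listed at 0 in the others. In the last pair, lines listed at 0 enter with a difference of 0.0, which makes the remaining line stand apart.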

How the results depend on the processing

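The count of lncRNAs past the threshold was 0 in edgeR in each of the 4 detachment contrasts, and 0 with DESeq2's size factors and in a fit of only the states compared. It was also 0 in the 16 fits without a library or line, but over all genes those called only 0 to 6 at day 1, 0 to 69 at day 7, 0 to 260 for both times and 0 for day 7 against day 1. Without the replicate block 0 of all 17395 genes passed. These 0 counts therefore say nothing about stability. DESeq2 called 21 at day 1, 9 at day 7, 22 for both times together and 3 for day 7 against day 1. With limma on log2(TPM + 0.1) 5 passed at day 1 and 5 for both times, with limma on log2(TPM + 1) 7 and 6, and with no filter 4 and 4. The cause was not tested. For named lncRNAs, 33 results passed under DESeq2, 13 and 10 under limma and 7 with no filter that did not in the main model. No direction reversed under any alternative, but these results were named for one direction in the 4 lines or a large line difference. That outcome was therefore largely fixed in advance and says little about stability. The 44 lncRNAs called high or low in a line became 44 to 51 without single libraries. They became 37 under limma on log2(TPM + 1) and 46 on log2(TPM + 0.1). DESeq2, its size factors and no filter each gave 45. A TPM minimum of 5 gave 107 and of 20 gave 16, and requiring no coding overlap gave 19, since each changes how many lncRNAs enter. A log2 difference of at least 1 gave 115, since it is a looser rule.

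With 4 lines and 1 library per line and state, small changes were not detectable, and values within a line have no replicate. Levels of lncRNAs on coding exons rest on how reads were assigned.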
